A study of Mus musculus with 3 samples.

Results

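Acute-phase and cytokine-induced genes were followed across 3 tumours from the mammary gland of FVB-MMTV-Neu mice. The set was given as a list of 10 gene names, Saa1, Saa2, Saa3, Hp, Orm1, Orm2, Lrg1, Ptx3, Lcn2 and Steap4, and all 10 were found among the 47480 gene symbols of the tables. The list was chosen with the levels of these genes in the same tumours known, so the values below describe the genes and none of them was tested. In this strain the mouse mammary tumour virus promoter drives the Neu oncogene, the rat form of Erbb2. According to the protocols, tumours were placed orthotopically in syngeneic hosts, which keep their own immune system and tissues, and were collected 7 days after reaching 5 mm, with no treatment given. The series' design text describes them instead as tumours of untreated transgenic mice. All 3 tumours carry the same label and there is no second group, so they are numbered by order of deposition, and separate donor mice are not stated.

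The acute-phase response is the change in secreted proteins that follows infection, injury or tumour growth. Interleukin 6 and its relatives act through Stat3, and interleukin 1 and tumour necrosis factor through NF-kappa B; together with C/EBP factors they switch on these genes in hepatocytes. Several of the genes, among them Saa3, Lcn2, Ptx3 and Steap4, are also made outside the liver, in epithelial cells, macrophages, fibroblasts and fat.

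The libraries were unequal, and most differences between them set tumour 1 apart. Total estimated counts were 47449153, 11388769 and 17147394 in tumours 1, 2 and 3. The deposited names carry lane numbers 1, 5 and 5, and whether tumours 2 and 3 shared a sequencing run is not stated. The ribosomal sequence Rn18s-rs5 took 0.20, 7.87 and 6.68% of counts, and the summed level of 12 skeletal muscle markers was 5.18, 53954 and 24394 CPM. CPM are counts divided by a library size in units of 1000000 counts, the library size being scaled by the trimmed mean of M-values (TMM), and a minimum count left 12710 genes for shares over all genes. Each tumour gave 1 library, so a difference from one tumour to the next cannot be set against replicates, and intervals (95%, exact Poisson) cover counting error only. The luminal markers Krt8 (407, 734 and 1038 CPM) and Krt18 (461, 245 and 453 CPM) were present in all 3 tumours.

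Lcn2 was the highest of the 10 genes in every tumour, Hp and Steap4 were highest in tumour 1, and Saa3 was highest in tumour 2. Lrg1, Ptx3 and Orm1 varied less, and Saa1, Saa2 and Orm2 were close to 0. Of the 10 genes, 7 passed the minimum count, which requires reads in all 3 libraries; Saa1, Saa2 and Orm2 did not. Of these 7, Saa3, Hp, Steap4 and Lcn2 had their highest and lowest tumour at least 4-fold apart, where 29.5% of all genes past the minimum did. Only Saa3 was that far apart between tumours 2 and 3, which carry the same lane number, with tumour 2 higher. Of all genes, 0.448% were that far above and 0.755% that far below in tumour 2. No member was at least 4-fold below both others in tumour 2 (0.590% of all genes), or above both (0.0787%) or below both (0.0787%) in tumour 3. Because the list was chosen on such values, the counts are given as a description.

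**Figure D1:**
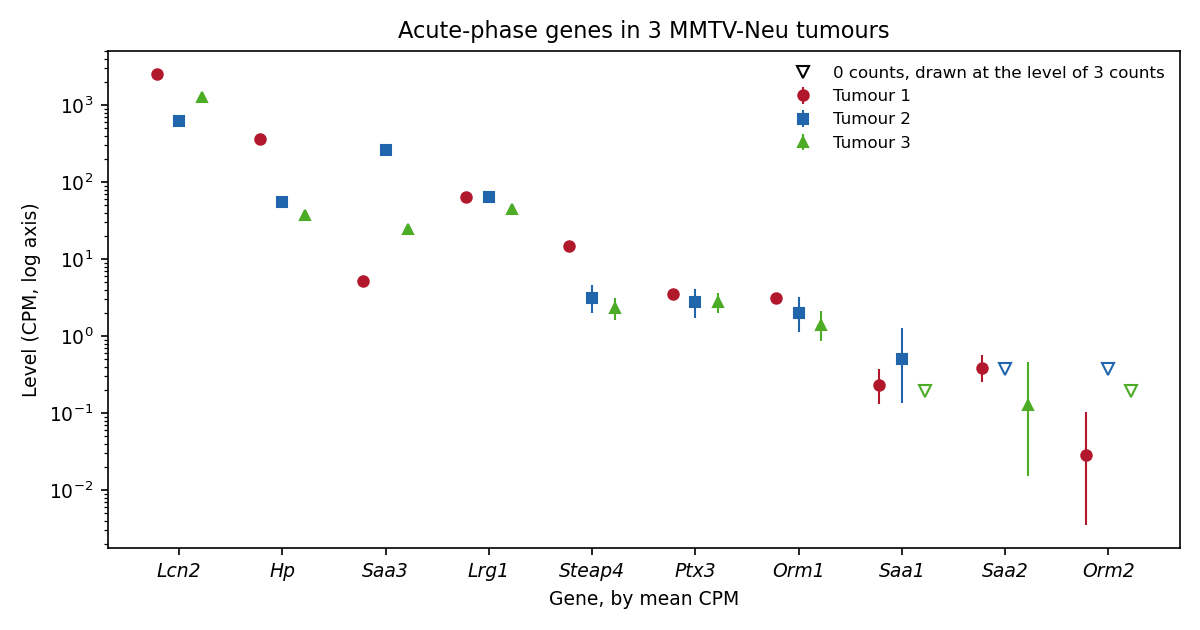
Level of each acute-phase gene in each tumour, in CPM on a log axis, with 95% Poisson intervals for counting error; open triangles mark 0 counts and are drawn at the level of 3 counts. Lcn2 lies between 624 and 2572 CPM, Saa3 spans 5.26 to 260.0 CPM with tumour 2 on top, and Saa1, Saa2 and Orm2 stay below 0.5 CPM.

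Serum amyloid A proteins are small apolipoproteins that ride on high-density lipoprotein. In the mouse, Saa1 and Saa2 are the main liver forms, and Saa3 is the form made in macrophages, fat and epithelia. The genes lie together on chromosome 7 of GRCm38 (the assembly also called mm10), where Saa3 spans 46711998 to 46715700, Saa4 46727998 to 46732603, Saa1 46740497 to 46742980 and Saa2 46751790 to 46754313. All 4 fall within 42.3 kb. The 250 bases upstream of the RefSeq start (GRCm38.p6) are shown for the 3 genes of the set, because Saa3 stood far above its neighbours in level. Capitals mark the C/EBP motif TTGCNNAA, read on either strand. The windows are chr7:46715677-46715926 on the minus strand, chr7:46742981-46743230 on the minus strand and chr7:46751583-46751832 on the plus strand. The gene spans come from GENCODE M21, whose starts differ from RefSeq, and those of Saa3 and Saa2 reach into their windows.
Saa3: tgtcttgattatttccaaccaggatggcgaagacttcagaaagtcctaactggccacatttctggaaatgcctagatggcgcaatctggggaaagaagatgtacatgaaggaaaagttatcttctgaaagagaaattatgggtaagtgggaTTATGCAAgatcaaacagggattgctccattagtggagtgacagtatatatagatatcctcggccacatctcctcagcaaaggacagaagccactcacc
Saa1: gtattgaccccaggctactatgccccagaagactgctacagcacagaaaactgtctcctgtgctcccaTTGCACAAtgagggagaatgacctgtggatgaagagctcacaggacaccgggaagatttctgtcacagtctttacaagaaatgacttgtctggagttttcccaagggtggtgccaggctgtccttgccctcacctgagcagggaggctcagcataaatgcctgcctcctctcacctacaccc
Saa2: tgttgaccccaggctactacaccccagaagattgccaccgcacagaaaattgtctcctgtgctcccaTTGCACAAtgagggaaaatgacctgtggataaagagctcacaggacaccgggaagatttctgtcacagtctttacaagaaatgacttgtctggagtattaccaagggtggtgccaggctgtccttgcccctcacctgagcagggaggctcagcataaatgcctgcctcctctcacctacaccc
In a global alignment the Saa1 and Saa2 windows were identical at 238 of 251 columns (94.8%). Saa3 matched Saa1 at 52.5% and Saa2 at 51.8% of columns.

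Saa3 carried nearly all reads of the cluster. It had 364, 2092 and 392 counts in tumours 1, 2 and 3, or 5.26 CPM (4.74 to 5.83), 260.0 CPM (249 to 271) and 24.9 CPM (22.5 to 27.5). The 3 intervals did not overlap, tumour 2 was on top and tumour 1 lowest. Tumour 2 was 49.4-fold above tumour 1 and 10.4-fold above tumour 3. Tumour 3 in turn was 4.73-fold above tumour 1. At least 4-fold above both other tumours, as Saa3 was in tumour 2, were 0.252% of all genes, and at least 4-fold below both, as it was in tumour 1, 8.21%. With library totals alone as the scaling, which shifts the median of all genes by 0.56, −0.47 and −0.09 on the log2 scale in tumours 1, 2 and 3, Saa3 in tumour 1 was no longer 4-fold below tumour 3 (log2 difference −1.57, compared with −2.23). Between tumours 2 and 3, which carry the same lane number, its log2 CPM difference of 3.38 was the highest of the 12710 genes.

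Macrophage and endothelial marker sums were, like Saa3, highest in tumour 2 and lowest in tumour 1. The summed level of 12 macrophage markers was 1201, 4093 and 2781 CPM in tumours 1, 2 and 3, led by the complement genes C1qa (161, 2426 and 1369 CPM) and C1qc (138, 717 and 518 CPM). None of the 12 was at 0 in all tumours. Single markers differed in order. Of 11 macrophage markers past the minimum count, 4 were highest in tumour 1, 4 in tumour 2 and 3 in tumour 3. Of all genes, 47.1, 35.0 and 17.9% were highest in tumours 1, 2 and 3. Csf1r (82.5, 230 and 203 CPM) and Mrc1 (45.4, 241 and 134 CPM) were, like C1qa and C1qc, highest in tumour 2 and lowest in tumour 1. Lyz2 (478, 222 and 264 CPM), Cd14 (114, 6.09 and 24.4 CPM), Cd68 (24.5, 18.3 and 22.8 CPM) and Adgre1 (13.8, 11.6 and 11.9 CPM) were highest in tumour 1. The complement gene C1qb (116, 185 and 193 CPM) was highest in tumour 3. Apart from C1qa and C1qc, these markers were named after their values were seen. For 12 endothelial markers the sum was 346, 2508 and 1005 CPM, with Pecam1 at 56.4, 775 and 231 CPM and Egfl7 at 45.6, 627 and 242 CPM, and all 12 were highest in tumour 2 (35.0% of all genes). For 12 fibroblast markers it was 4326, 7172 and 3947 CPM, with tumour 3 and not tumour 1 lowest, and Col1a1 (1576, 3695 and 1625 CPM) and Col1a2 (1228, 1804 and 1109 CPM) on top. The part of these cells, of muscle and of ribosomal sequence in the Saa3 levels was not tested. In whole tumours, fewer cells of a type and less RNA per cell cannot be told apart. With the muscle list and Rn18s-rs5 left out of the table, Saa3 was at 5.61, 278 and 26.7 CPM.

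The liver forms were scarcely detected. Saa1 had 16, 4 and 0 counts in tumours 1, 2 and 3, and Saa2 had 27, 0 and 2 counts. The levels were 0.231, 0.497 and 0 CPM for Saa1, and 0.390, 0 and 0.127 CPM for Saa2. The intervals were 0.132 to 0.376, 0.135 to 1.27 and 0 to 0.234 CPM for Saa1 in tumours 1, 2 and 3. For Saa2 they were 0.257 to 0.568, 0 to 0.458 and 0.0154 to 0.459 CPM. Within each gene the intervals overlapped with TMM, which does not show that the levels were equal, and no test between tumours was run. The genes also share sequence. Of 560 windows of 50 bases (the read length) in the coding transcript of Saa1, 74 occurred unchanged in Saa2 transcripts (13.2%), so reads could be split between them, and 9 occurred in a transcript of Saa3. None of the 2151 windows of the longest coding transcript of Saa3 occurred in another gene of the cluster. The constitutive form Saa4 had 1, 0 and 0 counts.

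Haptoglobin, encoded by Hp (chromosome 8, 109575128 to 109579172), captures free haemoglobin. It had 25466, 442 and 593 counts in tumours 1, 2 and 3. The levels were 368 CPM (364 to 373), 54.9 CPM (49.9 to 60.3) and 37.7 CPM (34.7 to 40.8). Tumour 1 was 6.70-fold above tumour 2 and 9.77-fold above tumour 3. With TMM the intervals of all 3 tumours were apart, and tumours 2 and 3 lay within 1.46-fold. With library totals alone Hp was at 545, 39.7 and 35.3 CPM. Its log2 difference of tumour 2 from tumour 3 was then 0.17, compared with 0.54 with TMM. At least 4-fold above both other tumours in tumour 1, as Hp and Steap4 were, were 6.05% of all genes. The haptoglobin receptor gene Cd163, a macrophage gene chosen after its values were seen, was at 12.2, 14.3 and 3.88 CPM. Hmox1, which breaks down haem, was at 30.9, 149 and 129 CPM, lowest where Hp was highest.

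Steap4 (chromosome 5, 7960457 to 7982213) encodes a membrane metalloreductase that reduces iron and copper and is induced by inflammatory cytokines in fat and epithelium. It had 1009, 25 and 36 counts, or 14.6 CPM (13.7 to 15.5), 3.11 CPM (2.01 to 4.59) and 2.29 CPM (1.60 to 3.17) in tumours 1, 2 and 3. Tumour 1 was 4.69-fold above tumour 2 and 6.37-fold above tumour 3, whereas the intervals of tumours 2 and 3 overlapped. In log2 CPM centred over the tumours, Hp and Steap4 were the closest pair of the set after Lrg1 with Ptx3, at Euclidean distances of 0.49 and 0.35. The relatives of Steap4 went the other way, with Steap1 at 1.52, 4.60 and 4.26 CPM, Steap2 at 4.15, 17.5 and 7.75 CPM and Steap3 at 17.4, 37.9 and 26.1 CPM. These 3 were named after their values were seen, and each was lowest in tumour 1.

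Hp and Steap4 are both expressed in fat. The summed level of 12 adipocyte markers was 553, 572 and 401 CPM, led by Fabp4 (215, 144 and 120 CPM) and Cfd (135, 85.8 and 83.8 CPM), and none was at 0 in all tumours. Adipoq, the adiponectin gene, named after its values were seen, was at 24.3, 3.60 and 3.69 CPM, also highest in tumour 1, and it was the 1 marker of 11 past the minimum count at least 4-fold above both others there. Lipe (33.1, 127 and 53.8 CPM), Plin4 (19.8, 94.2 and 62.0 CPM), Cidec (24.9, 41.5 and 17.7 CPM) and Adig (6.24, 13.5 and 6.10 CPM), likewise named after their values were seen, were highest in tumour 2. Basal and keratinocyte markers summed to 264, 57.5 and 46.1 CPM, with Krt14 at 107, 12.4 and 6.74 CPM and Krt5 at 64.4, 1.62 and 1.46 CPM. Of the 6 past the minimum count, 4 were highest in tumour 1, where 47.1% of all genes were. Sbsn (2.57, 12.7 and 3.37 CPM) was highest in tumour 2 and Krt15 (1.01, 16.2 and 22.1 CPM) in tumour 3, both named after their values were seen. The part of fat, of basal cells, of the lane or of depth in these levels was not tested. Of the 12 hepatocyte markers, 2 passed the minimum count. These were Cyp2e1 at 14.2, 20.5 and 9.91 CPM and Serpina1b, which has close paralogs, at 3.28, 6.59 and 2.67 CPM. They made up most of the sum (20.4, 28.1 and 13.0 CPM). Ttr, Apob, Tat and Fabp1 had 0 counts in every library, and Alb had 26, 3 and 0 counts. The rest were named after their values were seen. Ahsg (137, 0 and 0 counts), Serpina1c (23, 0 and 0) and Apoa1 (12, 0 and 0) had counts only in tumour 1, the deepest library. Their levels there were 1.98, 0.332 and 0.173 CPM. A level of 3 counts was 0.373 CPM in tumour 2 and 0.191 CPM in tumour 3, and the part of depth in these 0 counts was not tested. Apoa2 had 2, 4 and 6 counts and Apoh 0, 1 and 0.

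Lcn2 (chromosome 2, 32384633 to 32388252) encodes lipocalin 2, which starves bacteria of iron by binding their siderophores and is made by neutrophils and inflamed epithelium. It had 177913, 5022 and 19897 counts in tumours 1, 2 and 3. Its levels were 2572 CPM (2560 to 2584), 624 CPM (607 to 642) and 1265 CPM (1247 to 1282), all 3 apart, with tumour 1 highest and tumour 2 lowest. It took 0.375, 0.0441 and 0.116% of all counts and ranked 10, 304 and 92 by CPM among all symbols. Tumour 1 was 4.12-fold above tumour 2 and 2.03-fold above tumour 3, and tumour 3 was 2.03-fold above tumour 2. The step between tumours 1 and 2 lay just past 4-fold with TMM (log2 difference 2.04), just short of it with DESeq2 size factors (1.91) and well past it with library totals alone (3.08). Steap4, at a log2 range of 2.64, was the next member past 4-fold, and Orm1, at 1.13, the nearest member short of it.

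Neutrophil granule genes differed from each other in their order over the tumours. The summed level of 12 neutrophil markers was 64.5, 41.9 and 75.2 CPM, and Ly6g had 0 counts in every library. Csf3r was at 13.5, 22.99 and 8.71 CPM. The lactoferrin gene Ltf, which encodes another iron-binding protein of neutrophils and glands, was at 24.4, 5.84 and 12.0 CPM, in the order of Lcn2. The granule genes Ngp (0.434, 1.74 and 7.69 CPM) and Camp (1.27, 3.23 and 12.5 CPM) were highest in tumour 3 and lowest in tumour 1. S100a8 (6.27, 1.62 and 13.9 CPM) and S100a9 (13.5, 4.97 and 17.4 CPM) were also highest in tumour 3 but, like Lcn2, lowest in tumour 2. Cxcr2 (4.63, 0.870 and 1.08 CPM) was highest in tumour 1 and lowest in tumour 2. Ngp, Camp, S100a8, S100a9 and Cxcr2 were named after their values were seen. Of 7 neutrophil markers past the minimum count, 2 were highest in tumour 1, 1 in tumour 2 and 4 in tumour 3. Of all genes, 47.1, 35.0 and 17.9% were highest in tumours 1, 2 and 3. The part of neutrophils in the Lcn2 levels was not tested. Among 12709 genes Ltf was the nearest to Lcn2 in centred log2 CPM over the 3 tumours, at a Euclidean distance of 0.01, followed by Fam172a, Gpr65, Mrpl18 and Apoo-ps, at 0.02 to 0.03. With 3 tumours many genes share any such pattern. The nearest to Steap4 were Pnisr, 8030462N17Rik, Zfp263, Piga and Frem1, at 0.04 to 0.06. Saa3 had no gene as close, and its nearest were Car4 at 0.61, Gab3, Atp2a3, Rtl1 and Gpr157 at 0.93. The luminal marker sum was 2519, 1760 and 2656 CPM, lowest in tumour 2, as were Lcn2 and the neutrophil sum. Single luminal markers differed in order: of 12, 8 were highest in tumour 1, 1 in tumour 2 and 3 in tumour 3 (47.1, 35.0 and 17.9% of all genes). Krt8 was lowest in tumour 1, where Lcn2 was highest. The part of luminal cells in the Lcn2 levels was not tested.

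The windows upstream of the RefSeq starts of Lcn2 (chr2:32387740-32387989, minus strand) and Steap4 (chr5:7960222-7960471, plus strand) are shown because both genes were highest in tumour 1. The Lcn2 window lies inside the GENCODE span given above for Lcn2, and the span of Steap4 reaches into the end of its window. Capitals again mark TTGCNNAA, and in Steap4 also the STAT motif TTCNNNGAA and the kappa B consensus, with no overlap between matches.
Lcn2: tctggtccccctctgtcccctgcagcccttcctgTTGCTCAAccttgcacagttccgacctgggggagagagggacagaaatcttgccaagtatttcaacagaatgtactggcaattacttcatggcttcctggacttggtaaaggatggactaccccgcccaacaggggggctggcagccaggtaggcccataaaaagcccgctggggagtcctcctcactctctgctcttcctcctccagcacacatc
Steap4: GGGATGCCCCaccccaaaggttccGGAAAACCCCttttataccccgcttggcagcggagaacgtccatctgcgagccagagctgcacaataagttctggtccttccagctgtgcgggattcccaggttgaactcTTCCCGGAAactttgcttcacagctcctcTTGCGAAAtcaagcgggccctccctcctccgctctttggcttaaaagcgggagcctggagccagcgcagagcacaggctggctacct
RefSeq promoter sequences were matched for 8 of the 10 genes, all but Hp and Orm1. On either strand TTGCNNAA was found in 7 of these 8, Lrg1 being the exception, and in 9.57% of 32817 promoter windows of the same length. Since Saa1 and Saa2 are near copies, their matches are not separate. Only Steap4 held TTCNNNGAA (7.01% of windows) or the kappa B consensus (2.13% of windows, here at 2 places). A match shows only that these letters are present.

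**Figure D2:**
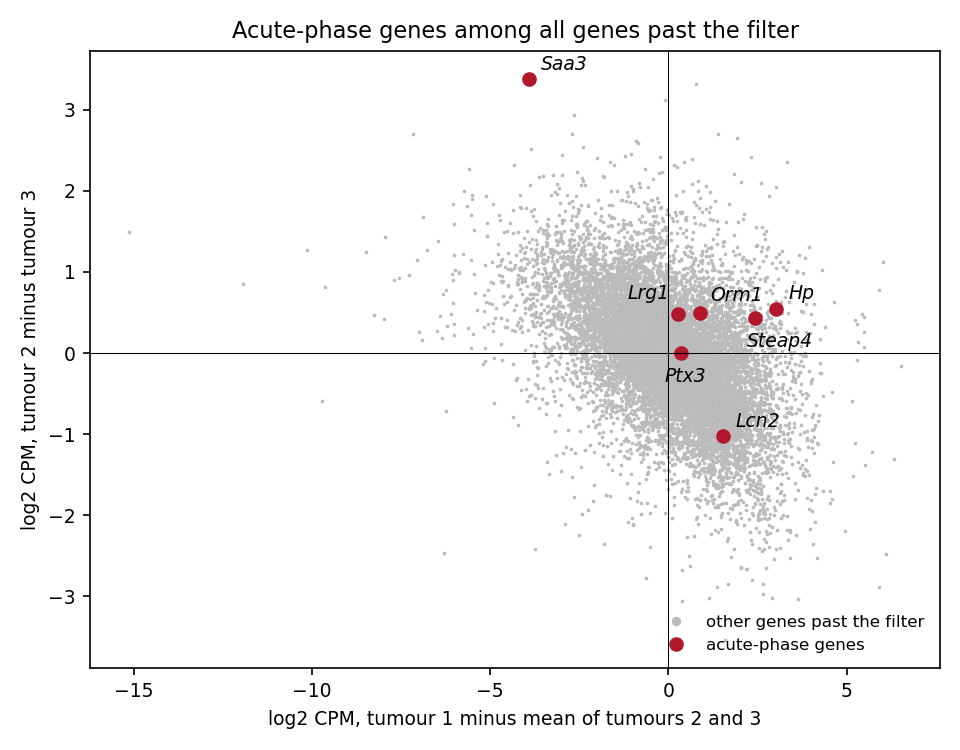
Each point is a gene past the minimum count, placed by its log2 CPM difference of tumour 1 from the mean of tumours 2 and 3 (horizontal) and of tumour 2 from tumour 3 (vertical); acute-phase genes are red. Saa3 lies alone at the top left, at −3.92 and 3.38, while Hp (3.01 and 0.54) and Steap4 (2.42 and 0.43) lie to the right with tumours 2 and 3 close together.

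Lrg1 (chromosome 17, 56119678 to 56122001) encodes a secreted leucine-rich glycoprotein that modifies TGF-beta signalling in blood vessels. It had 4443, 509 and 713 counts, or 64.2 CPM (62.4 to 66.1), 63.3 CPM (57.9 to 69.0) and 45.3 CPM (42.0 to 48.8) in tumours 1, 2 and 3. Its mean was 57.6 ± 10.7 CPM (SD, n = 3). With TMM tumours 1 and 2 overlapped within counting error and tumour 3 was lower. Tumour 2 was above tumour 3 by a log2 difference of 0.48 with TMM, but only 0.11 with library totals alone. Which of tumours 1 and 2 came out higher turned with the scaling (log2 difference 0.02 with TMM, −0.11 with DESeq2 size factors and 1.06 with library totals alone). Its log2 range of 0.50, which was 1.16 with library totals alone, lay at percentile 12.4 of all genes. The genes of receptors through which it acts, named after their values were seen, were at 38.9, 83.8 and 76.0 CPM for Eng and at 12.5, 40.8 and 22.2 CPM for Acvrl1.

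Ptx3 (chromosome 3, 66219910 to 66225805) encodes the long pentraxin, a soluble pattern recognition protein of stroma and phagocytes. It had 244, 22 and 43 counts, or 3.53 CPM (3.10 to 4.0), 2.73 CPM (1.71 to 4.14) and 2.73 CPM (1.98 to 3.68). With TMM the 3 intervals overlapped, which does not show that the levels were equal, and the mean was 3.0 ± 0.458 CPM (SD, n = 3). With library totals alone Ptx3 was at 5.22, 1.97 and 2.56 CPM. Tumour 1 was then higher by a log2 difference of 1.37 from tumour 2 and 1.01 from tumour 3, compared with 0.36 and 0.36 with TMM. Its span overlaps that of Veph1 on the other strand, and the strand setting of the counting is not given in the sources used here. Veph1 had 19, 0 and 0 counts. Tnfaip6, whose product binds Ptx3 in the matrix and which was named after its values were seen, was at 0.969, 8.82 and 5.53 CPM, lowest in tumour 1.

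Orosomucoids, or alpha-1-acid glycoproteins, are lipocalins of plasma that carry drugs and lipids. Orm1 (63344560 to 63348163), Orm3 (63356162 to 63359511) and Orm2 (63362449 to 63365878) lie within 21.3 kb of chromosome 4. Orm1 had 217, 16 and 22 counts, or 3.14 CPM (2.73 to 3.58), 1.99 CPM (1.14 to 3.23) and 1.40 CPM (0.876 to 2.12). The interval of tumour 2 overlapped those of both others, and that of tumour 1 lay above that of tumour 3. These intervals hold for TMM. With library totals alone Orm1 in tumour 1 was higher by a log2 difference of 1.64 from tumour 2 and 1.77 from tumour 3. With TMM these differences were 0.64 and 1.13. Orm2 had 2, 0 and 0 counts and Orm3 9, 0 and 0 counts. In tumour 1 the deposited values were 216.821 for Orm1 and 2.179 for Orm2, which sum to 219.0, so that the estimate divided reads between the genes. Of 726 windows of 50 bases in the Orm1 transcript, 148 occurred in Orm2 (20.4%). The split is therefore uncertain.

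Levels of different genes can be compared only per length. Counts were divided by the longest coding transcript in GENCODE M21 and scaled to sum to 1000000 within each tumour (TPM). Lcn2 was first in each, at 8110, 828 and 2058 TPM in tumours 1, 2 and 3, and ranked 9, 165 and 74 among all symbols. In tumour 1 it was followed by Hp at 789.7 TPM and Lrg1 at 132 TPM. In tumour 2 Saa3 came next at 143 TPM, then Lrg1 at 54.5 TPM and Hp at 49.6 TPM. In tumour 3 Lrg1 (47.9 TPM) and Hp (41.7 TPM) were close, and Saa3 was at 16.9 TPM. Saa3 has coding transcripts of 555 and 2200 bases, and with the shorter, chosen after the data were seen, it was at 27.4, 568 and 66.8 TPM, above Hp and Lrg1 in tumour 3. Steap4 was at 13.3, 1.20 and 1.08 TPM, Orm1 at 11.7, 3.11 and 2.69 TPM and Ptx3 at 5.36, 1.75 and 2.14 TPM. Over the 3 tumours Hp averaged 294 ± 429.6 TPM, Lrg1 78.0 ± 46.5 TPM and Saa3 55.7 ± 76.1 TPM (SD, n = 3), so neighbours in this order lay within their spread. Lcn2 averaged 3665 ± 3898 TPM.

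**Figure D3:**
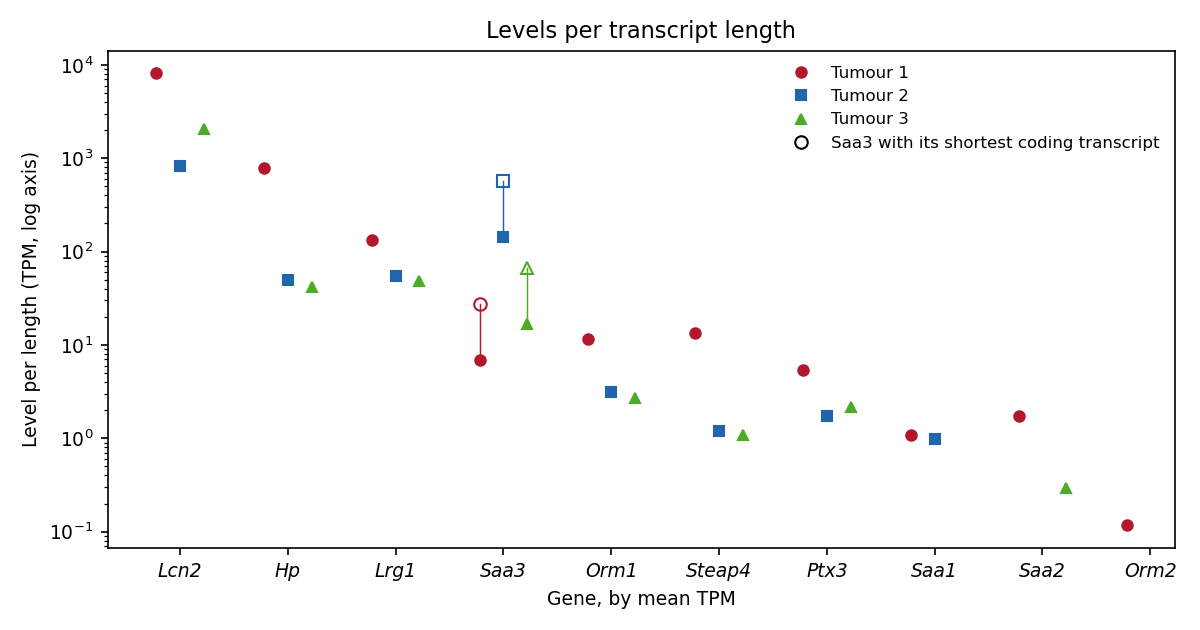
Level per transcript length of each gene in each tumour, in TPM on a log axis; filled symbols use the longest coding transcript, open symbols the shortest for Saa3, and values of 0 are not drawn. Lcn2 is first in each tumour, at 828 to 8110 TPM, and Saa3 is the next in tumour 2.

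Other acute-phase genes, on a list of 30 of which 29 were in the table, differed in direction. Of 13 past the minimum count, 5 were at least 4-fold apart, a share of 38.5% where all genes gave 29.5%. Genes that in the body are made chiefly by the liver differed in level. Apcs, Fga, Hamp and Pzp had 0 counts throughout, and Crp had 1, 7 and 0 counts. Of the other fibrinogen genes, Fgg had 72, 0 and 0 counts and Fgb 28, 0 and 0, so both had counts only in tumour 1. Serpina3m, at 15, 0 and 0 counts, did likewise. Hpx had 32, 3 and 18 counts and Itih4 9, 16 and 4. C3 (88.0, 74.1 and 64.6 CPM), Lbp (68.3, 29.7 and 31.9 CPM) and Cfb (30.4, 25.6 and 23.2 CPM) were well covered and highest in tumour 1. All of these were named after their values were seen. The copper carrier ceruloplasmin (Cp) was at 401, 120 and 156 CPM in tumours 1, 2 and 3. The endotoxin co-receptor Cd14 was at 114, 6.09 and 24.4 CPM, at least 4-fold above both others in tumour 1. Serpina3n, a protease inhibitor with close paralogs, was at 23.5, 6.34 and 4.89 CPM, an order also seen for Hp and Steap4. The metallothioneins, which bind zinc and copper, went the other way. Mt1 was at 30.2, 1339 and 779 CPM and Mt2 at 14.2, 428 and 318 CPM, both at least 4-fold below both others in tumour 1.

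The genes of cytokines upstream of the acute-phase genes differed from each other in level, and they too differed in direction. Of 15 ligand genes 7 passed the minimum count, and 4 of them were at least 4-fold apart (57.1%, where all genes gave 29.5%). Il6 had 22, 0 and 4 counts in tumours 1, 2 and 3. Il1b was at 20.6, 2.86 and 3.24 CPM, at least 4-fold above both others in tumour 1. Osm, the gene of oncostatin M, an interleukin 6 relative, was at 1.40, 16.0 and 3.62 CPM, at least 4-fold above both others in tumour 2, as Saa3 was. Tnf was at 2.95, 12.4 and 12.0 CPM, on the edge of 4-fold below both others in tumour 1. Of the most abundant ligands, Lif was at 23.3, 17.5 and 27.7 CPM, Ctf1 at 33.3, 10.6 and 11.4 CPM and Csf3 at 5.46, 15.4 and 23.4 CPM.

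Receptor genes were better covered, with 14 of 15 past the minimum count and 6 at least 4-fold apart (42.9%, where all genes gave 29.5%). Il6st, the signalling chain shared by the interleukin 6 family, was at 88.2, 310.1 and 157 CPM, and Il6ra at 7.89, 30.3 and 27.5 CPM. Il17rc was at 20.0, 329 and 251 CPM and Tnfrsf1b at 25.2, 287 and 138 CPM, both at least 4-fold below both others in tumour 1. The oncostatin M receptor gene Osmr, named after its values were seen, was at 35.2, 7.83 and 10.2 CPM. The order of Osmr, highest in tumour 1 and lowest in tumour 2, was thus the reverse of that of its ligand gene Osm.

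All 24 signalling and transcription factor genes passed the minimum count, and 9 were at least 4-fold apart (37.5%, where all genes gave 29.5%). Of the 24, 4 were that far above both others in tumour 1 (6.05% of all genes) and 1 that far below (8.21% of all genes). Stat3 was at 235, 1096 and 817 CPM and Cebpb at 196, 435 and 525 CPM, while Cebpd was at 17.2, 6.59 and 13.9 CPM. Of the NF-kappa B genes, Nfkb2 was at 105, 379.9 and 352 CPM and the inhibitor Nfkbia at 71.3, 71.3 and 53.1 CPM. Nfkb1, named after its values were seen, was at 65.3, 4.97 and 9.98 CPM. Nfkbiz is a cofactor of NF-kappa B that is needed in the mouse for Lcn2 induction by interleukin 17. It was at 14.2, 1.49 and 3.43 CPM, highest and lowest in the same tumours as Lcn2, as were Nfkb1 and Cebpd. Of the 24 genes, 13 were highest in tumour 1, 9 in tumour 2 and 2 in tumour 3 (47.1, 35.0 and 17.9% of all genes). The interleukin 17 genes, named after their values were seen, had 1, 0 and 0 counts (Il17a) and 2, 0 and 0 counts (Il17f). The feedback inhibitors of Stat signalling differed from each other. Socs3 was at 69.5, 15.0 and 26.6 CPM, again in the order of Lcn2, and Socs1 at 3.01, 48.1 and 38.1 CPM. Of 17 receptors and relatives of the acute-phase proteins past the minimum count, 6 were at least 4-fold apart (35.3%, where all genes gave 29.5%). None of the 17 was that far above both others in tumour 1, where 6.05% of all genes were. The scavenger receptor Lrp1 was at 113, 958 and 505 CPM, the lipoprotein receptor Scarb1 at 136, 76.4 and 75.6 CPM, and Mmp9, whose product forms a complex with lipocalin 2, at 13.3, 176 and 74.9 CPM.

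Over the 7 members past the minimum count, the median log2 CPM difference from the mean of the other tumours was 0.89 in tumour 1, −0.18 in tumour 2 and −0.58 in tumour 3. Over all 12710 genes these medians were 0.11, −0.09 and 0.01. Tumour 1 was the highest for 6 of the 7 and for 47.1% of all genes, tumour 2 for 1, Saa3, and for 35.0%, and tumour 3 for none and for 17.9%, with Lrg1 passing to tumour 2 under DESeq2 size factors. The 5 lists of related genes held 75 genes past the minimum count, of which 30 (40.0%) were at least 4-fold apart, where all genes gave 29.5%. In tumour 1, 7 were that far above and 11 that far below both others (6.05 and 8.21% of all genes), and in tumour 2 Osm alone was above both (0.252% of all genes).

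**Figure D4:**
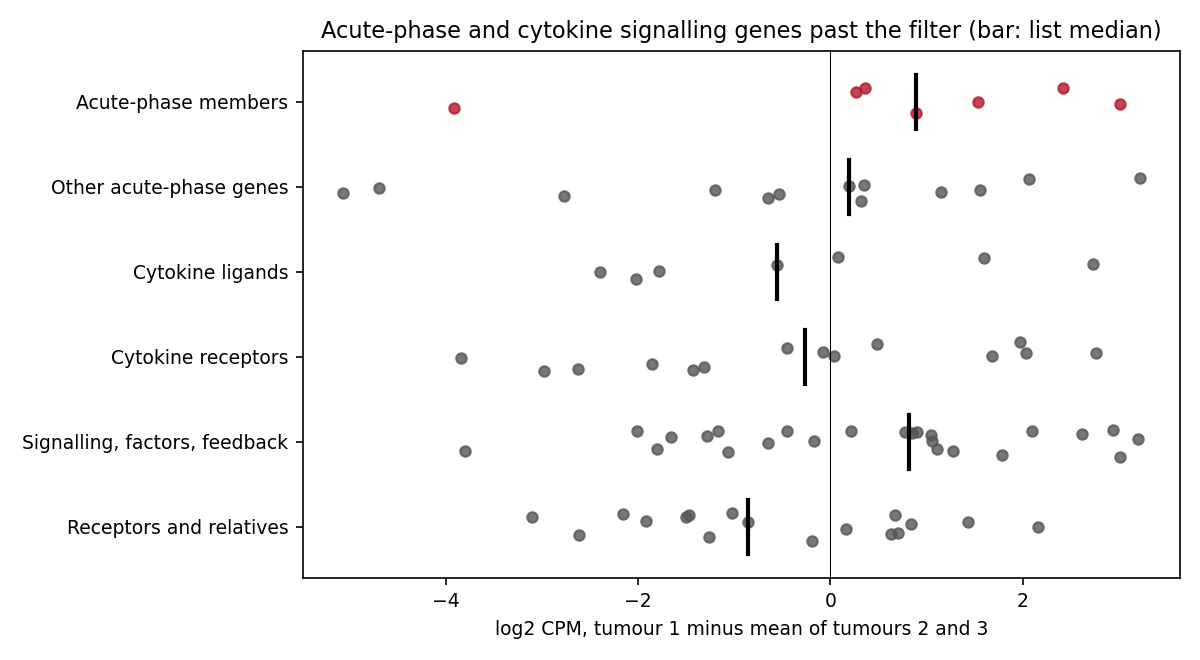
Log2 CPM difference of tumour 1 from the mean of tumours 2 and 3 for each gene past the minimum count, by list; bars are list medians. Members lie between −3.92 (Saa3) and 3.01 (Hp) with a median of 0.89, and each of the 6 lists drawn has genes on both sides of 0.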

How the data were processed

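Values are estimated counts that the authors deposited for each gene, read numbers from Salmon per the file headers, with no scaling for depth or length. STAR, SAMtools and Picard are also named, with genome build mm10, per the submitters' processing notes; versions, annotation and strandedness were not given in the sources used. Counts were rounded. Genes were kept by filterByExpr of edgeR 4.0.16 (R 4.3.3; minimum count 10, minimum total 15), and totals of kept genes were scaled by TMM factors of 1.48, 0.722 and 0.936 for tumours 1, 2 and 3. Log2 CPM used a prior count of 2, and a fold is a CPM ratio. With 1 group no test was run. Lengths came from GENCODE M21 for 95.2% of symbols. Alternatives were DESeq2 1.42.0 size factors, library totals alone, other filters, prior counts and thresholds, and leaving out each tumour. Members, lists and the rule for named genes (the members, the 3 highest and the widest-ranging gene of each related list, fixed cytokine pathway genes, extreme markers and nearest patterns) were chosen with earlier results of these data known. The precision of each level is set by its count, and with 3 libraries the spread between tumours is poorly known.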

Additional observations from a re-analysis of the deposited data

How the results depend on the processing

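The number of members at least 4-fold apart was 4, and 3 to 6 under the other scalings, filters, prior counts and the 2-fold threshold. With 1 tumour left out it ranged from 1 to 4, the 1 being Saa3 without tumour 1. Saa3 in tumour 1 ceased to be at least 4-fold below both others with library totals alone (0 members, compared with 1), the alternative that shifts all genes most. At 2-fold, 1 member (Lcn2) was below both others in tumour 2, compared with 0. Without a filter 1 member (Saa1) was below both others in tumour 3, compared with 0, because genes with few counts enter. With 1 tumour left out, members apart ranged from 0 to 1 above in tumour 3, from 0 to 3 below in tumour 2 and from 1 to 2 below in tumour 3, where a single other tumour is the comparison. The mean of Saa3 per length was 221 TPM with its shortest coding transcript and 55.7 TPM with its longest, a choice made after seeing the data. The median over members in tumour 2, −0.18 on the log2 scale, changed sign to 0.45 without tumour 1 and was −0.64 without tumour 3 and −0.86 with library totals alone. In tumour 1 the median of 0.89 was 1.70 with library totals alone and 0.64 to 0.99 with a tumour left out, and in tumour 3 the median stayed between −0.99 and −0.45 under every alternative run. No paired analysis was possible because there is 1 group. Depth limits Saa1, Saa2 and Orm2, which cannot be compared between tumours, and Ptx3, Orm1 and Steap4 in tumours 2 and 3, where they had 16 to 43 counts.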
